A study of Mus musculus with 10 samples.

Results

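The genes examined were Bdh1, Bdh2, Oxct1 and Acat1, the enzymes of ketone body synthesis and use, taken by symbol from the 23337 genes in the authors' deposited comparison of mouse cardiomyocytes with and without dnMKL1. All 4 symbols were found, and all 4 had an adjusted p-value. The data were RNA sequencing of sorted cardiomyocytes, the beating muscle cells of the heart. In the GFP group, wild-type mice received AAV9-cTNT-GFP, an adeno-associated virus in which the cardiac troponin T promoter drives a green fluorescent marker. In the dnMKL1 group, wild-type mice received AAV9-cTNT-dnMKL1-GFP, which adds dnMKL1, a dominant-negative form of MKL1 (also called MRTF-A), a coactivator of serum response factor. Both groups were injected on postnatal day 1 at 5e+08 viral genomes per gram, had their cells taken on postnatal day 14, and held 5 biological replicates. The labels do not say whether a replicate was 1 heart or a pool.

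Ketone bodies are small water-soluble fuels that the liver makes from fatty acids, mainly in fasting and in the suckling period, and that heart muscle burns. 3-hydroxybutyrate enters the cell through monocarboxylate transporters and is oxidized to acetoacetate in mitochondria by BDH1. OXCT1 then takes coenzyme A from succinyl-CoA to form acetoacetyl-CoA, a step that tissues using ketone bodies have and the liver largely lacks. ACAT1, the mitochondrial acetoacetyl-CoA thiolase, splits the product into acetyl-CoA for the citric acid cycle, and the same reaction run backwards starts ketone synthesis. ACAT1 also acts at the end of isoleucine breakdown. BDH2 is a cytosolic short-chain dehydrogenase with activity on 3-hydroxybutyrate and a proposed role in iron handling.

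In the GENCODE annotation of GRCm38, the build that the submitters' processing notes name as mm10, Bdh1 (ENSMUSG00000046598.15) lies on the plus strand at chr16:31422280-31458901. Bdh2 (ENSMUSG00000028167.15) lies on the plus strand at chr3:135281221-135304426. Oxct1 (ENSMUSG00000022186.14) lies on the plus strand at chr15:4026383-4155344, and Acat1 (ENSMUSG00000032047.5) on the minus strand at chr9:53580522-53610382. RefSeq promoter sequences on GRCm38.p6 matched 3 of the 4 genes, with 2 annotated starts for Bdh1. They are shown because the genes' levels lay far apart, as given further on. The sequences are the 100 bases just before the first annotated exon base at each start, 5′ to 3′, with CG dinucleotides in capitals:
Bdh1, first start, chr16:31422180-31422279, plus strand: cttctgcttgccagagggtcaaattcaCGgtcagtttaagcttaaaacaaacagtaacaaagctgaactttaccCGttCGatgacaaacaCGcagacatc
Bdh1, second start, chr16:31428648-31428747, plus strand: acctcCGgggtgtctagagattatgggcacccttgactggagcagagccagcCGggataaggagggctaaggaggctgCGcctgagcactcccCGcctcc
Bdh2, chr3:135281121-135281220, plus strand: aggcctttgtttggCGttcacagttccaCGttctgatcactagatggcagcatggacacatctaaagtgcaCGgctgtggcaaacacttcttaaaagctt
Oxct1, chr15:4026283-4026382, plus strand: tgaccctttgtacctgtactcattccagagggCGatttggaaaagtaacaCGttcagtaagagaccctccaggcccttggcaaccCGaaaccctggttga
These stretches held 4, 4, 3 and 3 CG dinucleotides. Over the 250 bases before each RefSeq start, GC content was 49.6% and 60.8% at the starts of Bdh1, 48.0% for Bdh2 and 52.0% for Oxct1, beside a median of 52.4% over 32817 promoters. CG counts there were 7 and 9 for Bdh1, 5 for Bdh2 and 6 for Oxct1, beside a median of 6. In GC content the promoter of Oxct1, an abundant transcript, thus lay between those at the starts of Bdh1, a scarce one.

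The same 250 bases were searched on both strands for 6 motifs, and none of the 4 windows held a match. The motifs were the nuclear receptor half-site AGGTCA (found in 14.0% of all promoters), the longer ERR element TCAAGGTCA that contains it (0.387%), and the PPAR direct repeat, made of 2 such half-sites (0.0335%). The others were the CArG box bound by serum response factor (1.47%), the MEF2 element (0.509%) and the NRF1 element (3.73%). A window without these letters says nothing about binding of the factors elsewhere.

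The direction of the fold change was read from Mkl1, since dnMKL1 is a form of its product: the authors' deposited table gave it 9.80 (SE 0.15) on the log2 scale. Positive values therefore mean more RNA in dnMKL1 libraries. Estimated depth ran from 8803029 to 17228615 counts per library, and size factors from 0.660 to 1.58. Group means, called implied means, were computed from the authors' base mean (the average normalized count over all 10 libraries) and fold change.

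The 4 genes formed a pair of abundant and a pair of barely detected transcripts. Per kb of exon, the base mean was 3900 normalized counts for Acat1 and 2513 for Oxct1, against 1.997 for Bdh2 and 1.71 for Bdh1. On this per-length scale Acat1 stood 1.55-fold above Oxct1 and 2285-fold above Bdh1. Acat1 exceeded 99.0% of the detected genes that have an exon length and Oxct1 98.4%, whereas Bdh2 and Bdh1 exceeded 26.5% and 25.4%. The level of the enzyme gene for the first step of 3-hydroxybutyrate oxidation was thus more than 1000 times below those for the later steps in both groups. At 1.48 normalized counts per kb with GFP and 1.94 with dnMKL1, Bdh1 kept this place in each.

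**Figure D1:**
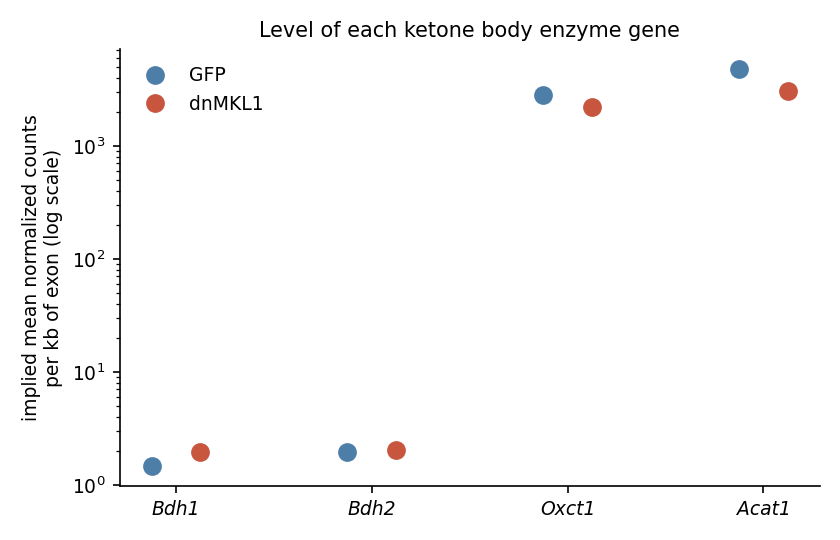
Implied mean level of the 4 genes in normalized counts per kb of exon, on a log axis, for the GFP and dnMKL1 groups (1 point per group, with no error bar because the table holds no values per library for all 4 genes). Acat1 and Oxct1 lie at 2213 or above in both groups, and Bdh1 and Bdh2 between 1.48 and 2.05.

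Acat1, the thiolase, was lower in dnMKL1 cardiomyocytes, at 63.5% of its GFP level with a 95% Wald interval from 55.1% to 73.3%. Its implied mean went from 16243 normalized counts with GFP to 10318 with dnMKL1. On the log2 scale this was -0.65 (SE 0.11) in the authors' deposited table, with a DESeq2 Wald p-value adjusted by the Benjamini-Hochberg method of 9.3e-09. It was the only one of the 4 genes past an adjusted p-value of 0.05, and 0 of 4 were higher, whether the p-value was adjusted or not. Over all 14056 genes tested, 17.4% were lower and 16.6% higher by the same threshold. Where the base mean reached 1000, 42.1% were lower and 13.7% higher. Acat1 had a base mean of 13280, and from 10000 up 70.7% were lower, so a lower value was common at this level. The 196 genes within 2-fold of its base mean had a median log2 fold change of -0.42. Of these, 61.2% were called lower, and 36.2% had a lower value than Acat1.

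Oxct1, the transferase that commits the heart to ketone use, had an implied mean of 9923 normalized counts with GFP and 7805 with dnMKL1. The authors' deposited table listed it at -0.35 (SE 0.17) on the log2 scale, with a Wald p-value of 0.037 that became 0.095 after adjustment, and so it was not called at 0.05. A threshold of 0.1, which called 19.9% of all genes tested as lower, would include it. The 95% Wald interval ran from 62.7% to 98.6% of the GFP level. From the implied means and size factors, 6317 to 12747 reads were expected in each library. The 294 genes within 2-fold of the base mean of Oxct1 had a median log2 fold change of -0.33. Of these, 57.1% were called lower, and 47.3% had a lower value than Oxct1. The SE was wide for such an abundant gene: 93.5% of these 294 genes had a smaller one, and their median SE was 0.10. The SE corresponds to a fitted spread between libraries of 18.2% (coefficient of variation) for Oxct1, against 11.5% for Acat1. The Wald intervals of these 2 genes overlapped, from -0.67 to -0.02 for Oxct1 and from -0.86 to -0.45 for Acat1 on the log2 scale, and the difference between them was not tested.

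Both values depend on how the libraries are scaled. Scaling the groups to the same summed mean adds 0.29 to every log2 fold change. Acat1 then stood at -0.37 (Wald, adjusted p = 0.0017), under a scaling that called 6.6% of all genes tested as lower, and Oxct1 at -0.06 (adjusted p = 0.81).

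For Bdh1 and Bdh2 the reads in each library could be recovered exactly, because a small base mean is a sum of whole reads divided by known size factors. For Bdh1, 1 set of reads gave the deposited base mean, and it also gave the deposited fold change to within 3.3e-06. For Bdh2, 431 sets gave the base mean, of which 1 gave the fold change to within 0.0001. The libraries are listed by rising size factor, since they cannot be tied to replicate numbers.

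Bdh1, the mitochondrial dehydrogenase, had 6, 3, 6, 2 and 9 reads in the GFP libraries. In the dnMKL1 libraries it had 3, 6, 4, 13 and 16 reads. The 2 highest counts were thus in the 2 deepest dnMKL1 libraries, and the groups overlapped. Divided by the size factors, the GFP libraries had 9.09, 4.53, 5.57, 1.64 and 7.01 normalized counts. The corresponding dnMKL1 values were 3.71, 6.80, 4.34, 9.44 and 10.1 normalized counts. Mean levels of 5.57 ± 2.78 (GFP) and 6.89 ± 2.90 (dnMKL1; SD, n = 5 each) differed by less than 1 SD of either group (two-sided exact permutation test, p = 0.484). On the log2 scale the authors' deposited table gave 0.39 (SE 0.56), with an adjusted Wald p-value of 0.66. Its 95% interval of 0.617-fold to 2.80-fold leaves room for a change in either direction at this depth.

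Bdh2, the cytosolic enzyme, had 2, 1, 3, 1 and 4 reads in the GFP libraries. Its dnMKL1 libraries had 4, 1, 2, 1 and 5 reads, so that every library held at least 1 read and none more than 5. Mean levels were 2.25 ± 1.03 and 2.43 ± 1.70 normalized counts (SD, n = 5 each), with overlapping groups (two-sided exact permutation test, p = 0.873). A log2 fold change of 0.08 (SE 0.84) stood in the authors' deposited table, with an adjusted Wald p-value of 0.96. The 95% interval ran from 0.338-fold to 3.30-fold. Counting error alone is large at 24 reads over 10 libraries, and reads carry no molecular identifiers.

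**Figure D2:**
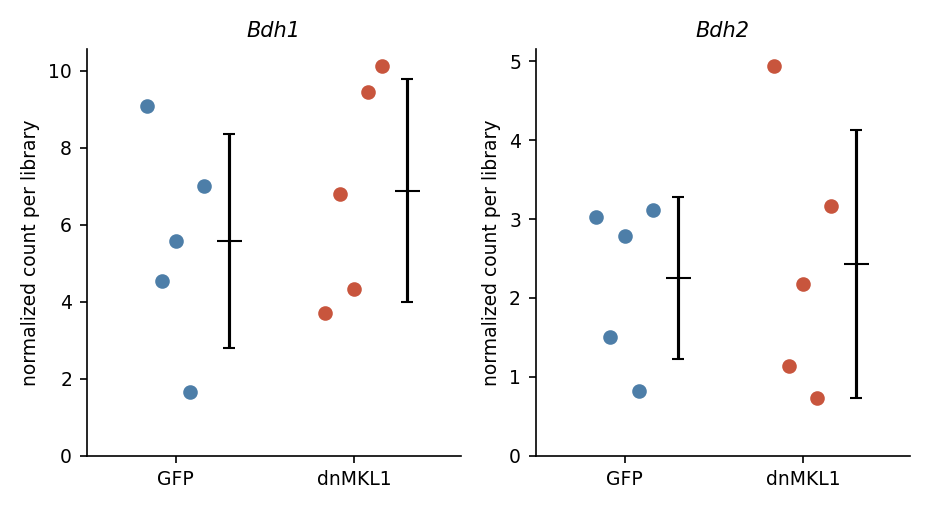
Normalized counts of Bdh1 and Bdh2 in each library (points, ordered by size factor within a group) with the mean and SD of the 5 libraries of each group (bars). The GFP and dnMKL1 points overlap for both genes, from 1.64 to 10.1 for Bdh1 and from 0.726 to 4.94 for Bdh2.

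Reads from overlapping genes could not be told apart, since the use of strand in counting is not given in the sources used here. Bdh1 shares 533 exon bases with the antisense gene Gm15743, and Bdh1 had 68 reads in all. Oxct1 shares 467 exon bases with BC037032 on the opposite strand, which had a base mean of 17.0 in the authors' deposited table. Close relatives were less of a concern for these genes. The longest run of identical bases was 18 between the transcripts of Oxct1 and its testis relatives Oxct2a or Oxct2b, 10 between Bdh1 and Bdh2, and 13 between Acat1 and Acat2. Oxct2a and Oxct2b themselves were listed at 0.

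**Figure D3:**
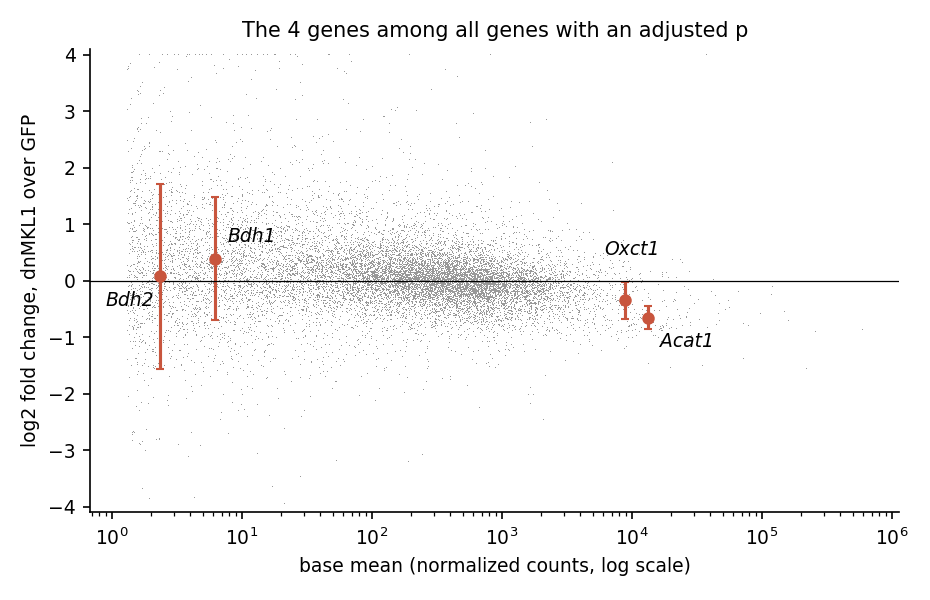
Log2 fold change against base mean on a log axis for all 14056 genes with an adjusted p-value (grey, with values beyond the axis drawn at its edge) and the 4 genes (red, with 95% Wald intervals). Acat1 and Oxct1 lie at the abundant end, where most genes are below 0, and the intervals of Bdh1 and Bdh2 cross 0.

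The remaining genes of the pathway were examined by role. Of 5 genes for cytosolic acetoacetate use and close relatives of the 4 enzymes, 2 had an adjusted p-value. Of these 2, 1 was higher and 0 lower, beside 16.6% higher and 17.4% lower over all genes tested. Among the 5, 1 had an unadjusted Wald p-value under 0.05. That gene was Aacs, the synthetase that activates acetoacetate for lipid synthesis, at 0.82 (SE 0.15) in the authors' deposited table with an adjusted p of 8.6e-07. Its level was low, with implied means of 75.3 and 133 normalized counts. Acat2, the cytosolic thiolase, was not called at 0.06 (SE 0.16) in the authors' deposited table. Reads of Acat2 can be shared with Acat3, since 97.7% of the aligned bases of their transcripts were identical.

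Among 8 genes of monocarboxylate transport, 3 were lower and 1 higher, and 4 were not called. By the same threshold, 17.4% of all genes tested were lower and 16.6% higher. From a base mean of 1000 up, which 2 of the 8 reached (Slc16a1 and Bsg), 42.1% were lower and 13.7% higher. Among genes within 2-fold of the base means of Slc16a1 and Bsg, 55.0% and 64.6% were lower. Slc16a1 encodes MCT1, the main carrier of lactate and ketone bodies across the heart cell membrane, and it fell to 49.0% of its GFP level, from 10596 to 5192 normalized counts. Its log2 fold change was -1.03 (SE 0.10) in the authors' deposited table, further from 0 than that of any of the 4 enzymes. Bsg, the chaperone that brings MCT1 to the membrane, was lower at -0.79 (SE 0.14) in the authors' deposited table. Slc16a7, which encodes MCT2, was lower at -1.04 (SE 0.29) in the authors' deposited table, with implied means of 105 and 50.8 normalized counts. Slc16a3, which encodes the lactate exporter MCT4, was higher at 1.75 (SE 0.33) in the authors' deposited table, with implied means of 20.1 and 67.8 normalized counts. For Slc16a1, Bsg, Slc16a7 and Slc16a3, the authors' deposited table gave adjusted Wald p-values of 9.2e-23, 4.8e-07, 0.0015 and 9.6e-07. Reads of the 2 scarcest transporter genes were also recovered. Slc16a4 had 15 reads over the GFP libraries and 14 over the dnMKL1 libraries, and Emb, another chaperone, had 11 and 11. Slc16a8, which encodes MCT3, was not called at -0.84 (SE 0.40; unadjusted Wald p = 0.037, adjusted p = 0.094), nor was Slc16a6 at -0.03 (SE 0.23), in the authors' deposited table.

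Of 9 receptors and regulators linked to ketone metabolism, 6 had an adjusted p-value, and of these 5 were lower and 1 higher. The shares over all genes tested were 17.4% lower and 16.6% higher. From a base mean of 1000 up, which 2 of the 9 reached, 42.1% were lower. Ppara, a nuclear receptor for fatty acids, was lower at -0.78 (SE 0.15) in the authors' deposited table. Ppargc1b, a coactivator of mitochondrial genes, was lower at -1.52 (SE 0.17), and its relative Ppargc1a at -0.33 (SE 0.10), in the authors' deposited table. Esrra, a nuclear receptor for oxidative genes, stood at -0.69 (SE 0.10) in the authors' deposited table, and Sirt3, a mitochondrial deacetylase, at -0.83 (SE 0.12). Adjusted Wald p-values for these 5 genes, taken from the authors' deposited table, ran from 9.9e-17 for Ppargc1b to 0.0066 for Ppargc1a. Under equal summed means Ppargc1a moved to -0.04 (adjusted p = 0.76) and was no longer called. Fgf21, a fasting hormone, was higher at 3.34 (SE 1.29; adjusted Wald p = 0.030) in the authors' deposited table. Its base mean was 1.602 in the authors' deposited table, so few reads lay behind it, and the size of that rise is not well fixed. The 3-hydroxybutyrate receptor gene Hcar2, under its older symbol Niacr1, and the receptor gene Ffar3 were listed at 0. Hcar1, the lactate receptor gene, under its older symbol Gpr81, had a base mean of 0.352 in the authors' deposited table.

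**Figure D4:**
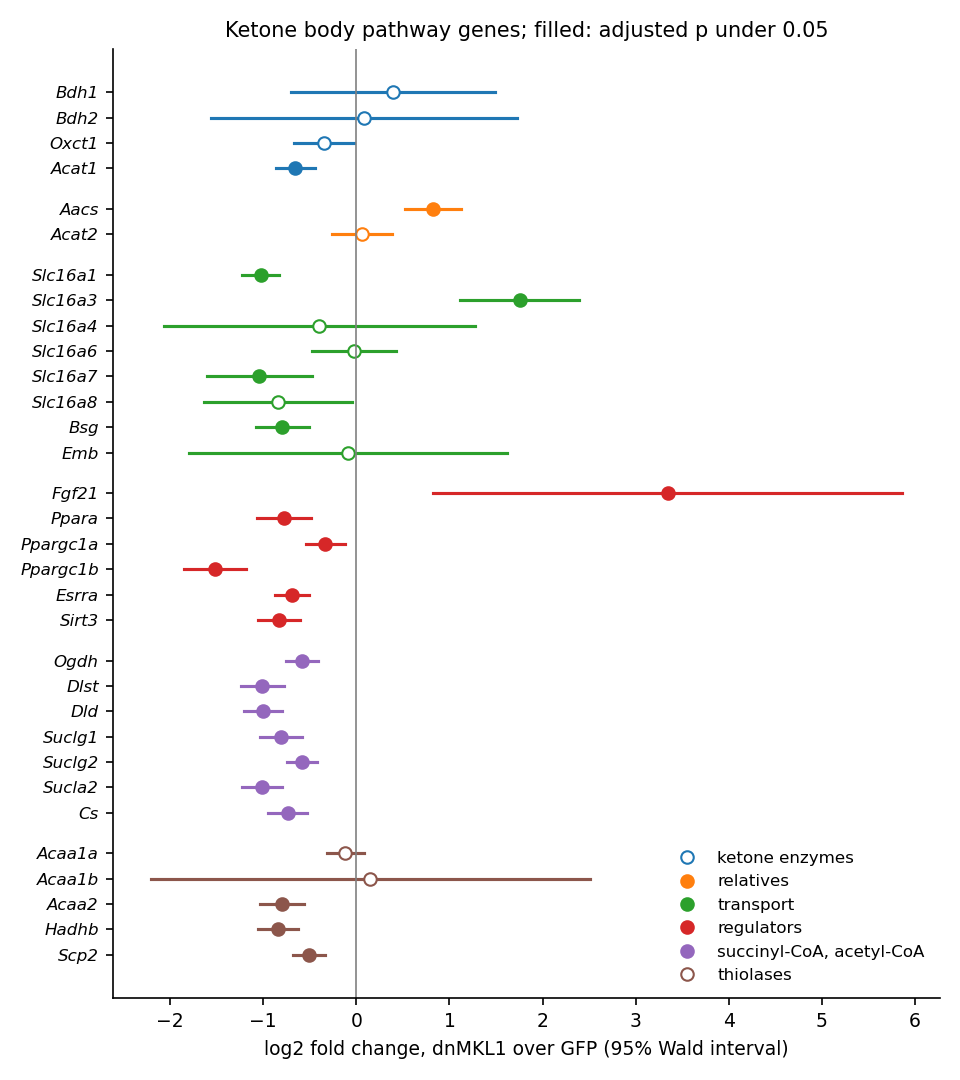
Log2 fold change (dnMKL1 over GFP) with 95% Wald intervals for genes of ketone body metabolism grouped by role, with filled points for an adjusted p-value under 0.05. Acat1 and the carrier Slc16a1 lie below 0, Aacs and Slc16a3 above it, and the interval of Oxct1 ends at -0.02.

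Enzymes that supply or compete for the succinyl-CoA spent by OXCT1, with citrate synthase, were lower in 7 of 7 cases, beside 17.4% of all genes tested and 42.1% of those whose base mean reached 1000, as it did for all 7. Where the base mean reached 10000, 70.7% of 140 genes were lower and the median log2 fold change was -0.60. Log2 fold changes listed for them in the authors' deposited table ran from -1.01 for Sucla2, a subunit of succinyl-CoA synthetase, to -0.58 for Ogdh, a subunit of the oxoglutarate dehydrogenase that makes succinyl-CoA. The other succinyl-CoA synthetase subunits Suclg1 and Suclg2 were at -0.81 (SE 0.12) and -0.59 (SE 0.08), and citrate synthase, Cs, at -0.74 (SE 0.11), in the authors' deposited table. The values of Oxct1 and Acat1, at -0.35 and -0.65 in the authors' deposited table, can be set beside a median of -0.81 for these 7 genes. All genes within 2-fold of the base means of Oxct1 and Acat1 had medians of -0.33 and -0.42. Of 5 other thiolases, 3 were lower and 2 not called. The trifunctional protein subunit Hadhb was at -0.84 (SE 0.11) and Acaa2 at -0.80 (SE 0.12) in the authors' deposited table, whereas the peroxisomal Acaa1a was not called at -0.12 (SE 0.10). Scp2, a peroxisomal thiolase and sterol carrier, was lower at -0.51 (SE 0.09) in the authors' deposited table, and Acaa1b had 7 reads over the GFP libraries and 9 over the dnMKL1 libraries. Of 4 mitochondrial short-chain dehydrogenases, the family of BDH1, 3 were lower (Hsd17b10, Cbr4 and Decr1) and Hsd17b8 was not matched by symbol.

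Pathways that end in the same acetyl-CoA are given for scale, and no difference between them and the 4 enzymes was tested. Their counts stand beside the same shares of lower genes, 17.4% of all tested, 42.1% from a base mean of 1000 up and 70.7% from 10000 up. A base mean of 1000 was reached by 18 of 18 genes of the citric acid cycle, 18 of 19 of fatty acid oxidation and 14 of 20 of branched-chain amino acid breakdown. The 18 citric acid cycle genes were all lower, with a median log2 fold change of -0.81 and the lowest values in the authors' deposited table for Idh3b (-1.16), Sucla2 (-1.01) and Dlst (-1.01). Of 19 genes of mitochondrial fatty acid oxidation, 17 were lower and 1 higher, with a median of -0.74. The largest changes were those of Echs1 (-0.98), the enoyl-CoA hydratase, of the acyl-CoA dehydrogenase Acadvl (-0.98) and of Etfdh (-0.89) in the authors' deposited table. The higher gene, named after its value was seen, was Cpt1a, the liver-type carnitine acyltransferase, at 0.86 (SE 0.12) in the authors' deposited table. Among 20 genes of branched-chain amino acid breakdown, the route that Acat1 shares, 17 were lower and 0 higher, with a median of -0.58 and 19 at an unadjusted Wald p-value under 0.05. Hibadh (-1.05), Dld (-1.01) and Hibch (-0.81) were lowest there in the authors' deposited table. Under equal summed means, where 6.6% of all genes tested were lower, 10 of these 20 genes were lower, as were 17 of 18 genes of the cycle and 15 of 19 of fatty acid oxidation. The median of the 4 enzymes was -0.13, beside 0.02 over all genes tested, and it averages a pair of abundant genes and a pair of scarce ones.

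Marker genes of cell types moved between the groups as well. Over all genes tested, 17.4% were lower and 16.6% higher by the same threshold. Of 8 cardiomyocyte markers, 6 were lower, beside 70.7% of all genes from a base mean of 10000 up, which all 8 reached. The summed implied mean of the 8 was 1438330 normalized counts with GFP and 789908 with dnMKL1. The most abundant, Myh6, was at -0.87 (SE 0.11) in the authors' deposited table. Of 6 fibroblast markers, 3 were higher (Col1a1, Col1a2 and Col3a1), with sums of 3093 and 4303 normalized counts. None of 6 endothelial markers was called, also at an unadjusted Wald p-value under 0.05 (0 of 6), with sums of 2239 and 2294. Of 6 mural markers, Cspg4 was higher, Acta2 lower and 4 not called, with sums of 17977 and 15528. Acta2 alone went from 10454 to 4999 normalized counts, a larger fall than that of the sum. Of 6 macrophage markers, Cd68 was higher, with sums of 143 and 127, and 2 had an unadjusted Wald p-value under 0.05. The other was Lyz2, the most abundant, which was not called at -0.55 (SE 0.26; unadjusted Wald p = 0.032, adjusted p = 0.085) in the authors' deposited table. Of 6 erythroid markers, 3 had a fold change and 0 were called by the DESeq2 Wald test, also at an unadjusted p-value under 0.05 (0 of 3), with sums of 52.9 and 75.5. The most abundant was the globin gene Hbb-bs, under its older symbol Beta-s, with a base mean of 57.0 and a log2 fold change of 0.55 (SE 0.79) in the authors' deposited table, while the globin genes Hba-a1 and Hba-a2 were listed at 0 and Hbb-bt was not matched by symbol. In bulk RNA, fewer cells of a type and less RNA per cell cannot be told apart, and the part of cell makeup in the values of the 4 enzymes was not tested.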

How the data were processed

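Total RNA of sorted cells (10 ng) went through SMART-Seq reverse transcription, was amplified over 8 cycles and made into Nextera XT libraries from 500 pg of cDNA, per the labels' protocols. Reads were aligned with STAR (2.5.3a) and counted with featureCounts of Subread (1.5.2) on mm10, per the submitters' processing notes. Which annotation served, and whether strand was used, is not given in the sources used here. The deposited table has the columns of a DESeq2 result, per the file headers. Its base mean is a signal in normalized counts averaged by the authors over all libraries. Its fold change and standard error were deposited on the log2 scale. Its Wald statistic, a deposited score, equals their ratio to within 1.1e-05. Its p-value and adjusted p-value were deposited by the authors, and the adjusted one was recomputed to within 1.4e-07.

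A plan for counts per library did not apply, so calls are the authors' adjusted p-values under 0.05, as that plan allowed. The genes, lists and tests were chosen with earlier results of these data known. The text names the 4 genes, genes from 6 pathway lists, in each comparison list the 3 called genes with the largest change, and markers that were called or most abundant. A list of ketone synthesis genes is not reported here. Implied group means assume that the base mean lies midway between the group means.

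Size factors were taken from genes with 1 read in 1 library, whose fold change sign gives the group. Whole reads were then sought for genes with a base mean up to 7, as a set that gave the deposited base mean. Refitted as a negative binomial with the deposited SE, the set also had to give the deposited log2 fold change to within 0.0001. No such set was found for Acat3, Hcar1 or Fgf21, so their reads are not given. On simulated data, drawn with group means below those implied for Bdh1, 20 of 20 sets were recovered. A fitted coefficient of variation is the square root of the dispersion that gives the deposited SE. Exon lengths are unions of GENCODE M21 basic exons. Wald intervals are at 95%. Computation used Python 3.11.15, numpy 2.4.6, scipy 1.17.1 and Biopython 1.88. Intervals cover the fitted spread between libraries, which the labels call biological replicates. Alternatives were other thresholds, other adjustments and other scalings, and, for recovered reads, leaving out 1 library.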

Additional observations from a re-analysis of the deposited data

How the results depend on the processing

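No paired analysis was possible because the table holds no values per library that carry replicate numbers. Planned count tests and model fits without 1 library were not run either, and whether 1 library decides the values of Oxct1 or Acat1 is unknown. Acat1 stayed lower and called under all 6 alternatives for single genes. A threshold of 0.1 called Oxct1 as well (-0.35; DESeq2 Wald test by the authors, adjusted p = 0.095), making the lower genes 2 in number. Total-count scaling moved the median of the 4 genes to 0.15, and 10 of 20 genes of branched-chain amino acid breakdown were then lower. Asking for a log2 change of at least 0.5 in size left 11 of those 20 lower, since fewer genes can pass. Under total-count scaling 3 pathway genes reversed, none of them called: Slc16a6 to 0.26, Emb to 0.20 and Acaa1a to 0.17. Of 31 pathway genes with an adjusted p-value, 31 had the same call after median-centring and after adjusting over every p-value listed. Without 1 library at a time, chosen after seeing the data, the log2 ratio of mean normalized counts ran from 0.07 to 0.55 for Bdh1 and from -0.32 to 0.34 for Bdh2. The lowest exact permutation p was 0.27 for Bdh1 and 0.51 for Bdh2. Bdh2 fell below 0 without the GFP library of size factor 0.662 (-0.0053) or 1.22 (-0.10), and without the dnMKL1 library of 0.809 (-0.32) or 1.58 (-0.0055). At this depth a 2-fold rise lay within the Wald intervals of Bdh1 and Bdh2.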
